A study of Homo sapiens with 6 samples.

Results

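The 10 genes that encode D-type cyclins, their kinases CDK4 and CDK6 and a set of CDK inhibitors were followed in U251 glioma cells exposed to sevoflurane (Sev). They were chosen by name and function, with earlier results of these data known, as CCND1, CCND2 and CCND3 for the cyclins, CDK4 and CDK6 for the kinases, CDKN1A, CDKN1B and CDKN1C for the CIP/KIP inhibitors and CDKN2C and CDKN2D for the INK4 inhibitors. All 10 were among the 61496 features of the count table, and 8 of them held enough counts to be among the 27514 features tested. U251 is an established human glioma cell line, which was grown in DMEM with 10% FBS. The study compared 3 libraries of untreated control cells with 3 libraries of cells held in Sev gas for 2 h. Sev is an inhaled anesthetic, and the protocol lists 1.7, 3.4 and 5.1% of it without assigning a concentration to a library, while the legend of the study's sequencing figure gives 5.1%. The labels number the 3 libraries of a group without naming separate cultures, and the study's statistics section speaks of independent experiments for its quantitative data without naming the sequencing, so the p-values measure the spread between these libraries, which may be technical.

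D-type cyclins are short-lived proteins whose genes respond to growth signals. Bound to CDK4 or CDK6, they start the phosphorylation of the retinoblastoma protein RB1, which releases E2F factors and lets the genes of DNA replication be transcribed. INK4 inhibitors bind CDK4 and CDK6 themselves, whereas CIP/KIP inhibitors bind whole cyclin and kinase complexes, above all those of CDK2. In glioma this pathway is often altered, most often by loss of INK4 genes or by gain of CDK4 or CDK6.

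The libraries held 38624292 to 46318311 counts each. The labelled cell line was checked by its markers, and VIM, NES, CD44, GFAP, SOX2, SLC1A3 and S100B, which astroglial and glioma cells use, were detected in all 6 libraries, whereas AQP4 and ALDH1L1 had at most 17 counts in a library. The summed level of the 9 astroglial markers was 7630 to 8561 CPM, the count scaled to a common library size, in control and 8675 to 9168 CPM in Sev-treated cells. Most of this sum was VIM, and single markers moved in opposite directions by edgeR's quasi-likelihood test, since CD44 was 1.96-fold higher in Sev-treated cells (adjusted p = 0.000174), SOX2 1.65-fold lower (adjusted p = 0.000367) and S100B 2.14-fold lower (adjusted p = 0.00215). The 5 neuronal markers summed to 72.1 to 103 CPM in control and 132 to 144 CPM in Sev-treated cells, most of which was the tubulin gene TUBB3, 1.61-fold higher in Sev-treated cells (adjusted p = 0.00567), and STMN2 was at 0 throughout. Leukocyte, oligodendrocyte, endothelial and epithelial marker lists each stayed at or under 10.4 CPM in sum, and AIF1 and CD3E were at 0. Within them OLIG2 was 3.97-fold lower (adjusted p = 0.000693) and MBP 2.01-fold higher (adjusted p = 0.00588), at control means of 2.39 and 2.52 CPM. PECAM1 was 1.89-fold higher at a control mean of 0.693 CPM (adjusted p = 0.0409), a call kept in only 1 of 6 fits made without a library. The part of these marker levels in the results was not tested. In bulk RNA, fewer cells of a type and less RNA per cell cannot be told apart.

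Exposure to Sev went with more CCND1, CCND3 and CDK6 RNA and with less CDKN1B RNA. CCND1 was 1.97-fold, CCND3 1.41-fold and CDK6 1.39-fold higher after 2 h, and CDKN1B was 2.42-fold lower. The other tested genes, CDK4, CDKN1A, CDKN1C and CDKN2D, did not pass the test, and CCND2 and CDKN2C held too few counts for one. At a limit of 0.05 on the p from edgeR's quasi-likelihood test, adjusted over all tested features by the method of Benjamini and Hochberg, 4 of the 8 tested genes were called, 3 higher and 1 lower. That limit called 43.7% of all 27514 features, 22.1% higher and 21.5% lower, and 45.9% of the protein-coding genes, 25.0% higher and 21.0% lower. A count of 4 in 8 is near this background, so the number of calls is not a result about the group, and what follows concerns which genes moved and by how much. Past the study's own threshold, a log2 fold change beyond 1 in size with an unadjusted p under 0.05, there was 1 gene of the 8, CDKN1B, on the lower side and 0 on the higher side. Of all features 23.5% passed it, 11.4% higher and 12.0% lower, and of protein-coding genes 16.7%, with 9.07% higher and 7.62% lower. The median log2 fold change was 0.27 over the 8 tested genes and 0.038 over the tested protein-coding genes. Each of the 4 calls was kept when any single library was left out.

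**Figure D1:**
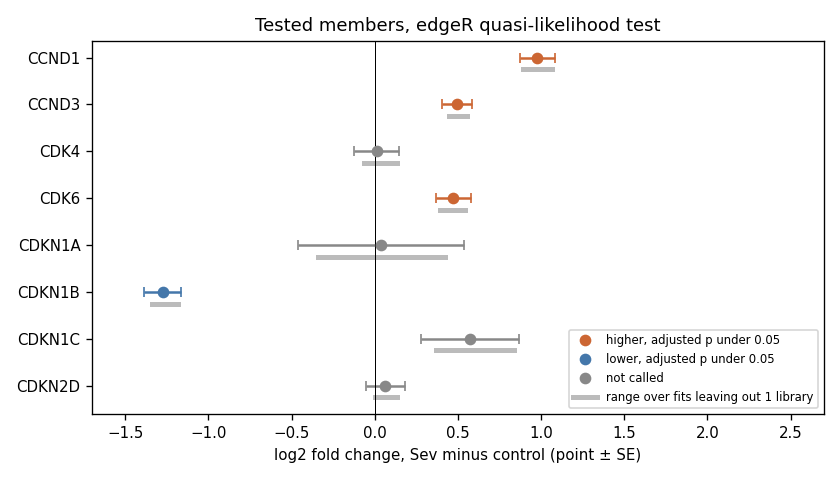
Log2 fold change of the 8 tested genes in Sev-treated against control U251 cells on the x axis, with bars for the SE, colour for genes called at an adjusted p under 0.05 and grey bands for the range over fits without 1 library. CCND1 lies at 0.98, CCND3 at 0.49 and CDK6 at 0.47, CDKN1B lies at −1.27, and the bar of CDKN1A, at 0.038, is the widest.

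For called genes in the table of RefSeq promoter windows used here, the 250 bases before a transcription start are shown, since these hold the proximal promoters of the genes whose RNA differed. That table covers 7 of the 10 genes, and windows of CCND1, CCND2 and CDKN1C were not analysed here. The bases are from GRCh38.p14, read 5′ to 3′ on the strand of the gene, with GC boxes (GGGCGG) and CCAAT boxes (CCAAT), found on either strand, in capitals. They lie at chr12:12717118-12717367 on the plus strand for CDKN1B, at chr7:92836574-92836823 on the minus strand for CDK6 and at chr6:42048689-42048938 on the minus strand for CCND3. CDK6 has 2 windows in the table and CCND3 has 3, of which the outermost is printed. These RefSeq starts differ from the gene ends given below, which are from GENCODE, so the windows of CDKN1B and CCND3 lie inside those gene ranges.
CDKN1B: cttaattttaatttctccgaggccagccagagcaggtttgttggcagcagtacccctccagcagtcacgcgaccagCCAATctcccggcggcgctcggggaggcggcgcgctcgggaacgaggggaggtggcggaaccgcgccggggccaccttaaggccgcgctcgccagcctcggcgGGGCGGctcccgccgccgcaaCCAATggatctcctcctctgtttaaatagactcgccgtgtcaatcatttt
CDK6: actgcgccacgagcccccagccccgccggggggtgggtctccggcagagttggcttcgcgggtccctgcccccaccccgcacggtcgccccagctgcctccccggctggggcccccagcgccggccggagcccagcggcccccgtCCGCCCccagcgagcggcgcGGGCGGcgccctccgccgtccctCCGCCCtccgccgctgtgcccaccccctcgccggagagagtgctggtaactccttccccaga
CCND3: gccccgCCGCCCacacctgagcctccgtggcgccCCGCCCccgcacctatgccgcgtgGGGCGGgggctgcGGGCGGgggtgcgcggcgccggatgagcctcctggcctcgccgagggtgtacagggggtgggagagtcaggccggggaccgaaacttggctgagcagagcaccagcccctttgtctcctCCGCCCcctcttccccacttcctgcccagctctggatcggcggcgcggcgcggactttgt
The window of CDKN1B holds 1 GC box and 2 CCAAT boxes, the printed one of CDK6 holds 3 GC boxes and the printed one of CCND3 holds 5. The other CDK6 window holds 0 of either, and the other two of CCND3 hold 1 CCAAT box each, with 2 GC boxes in one of them and 0 in the other. Of all 35116 windows of the same length, 42.6% hold a GC box and 32.0% a CCAAT box. The E-box CACGTG, the forkhead element TGTTTAC, the E2F element TTTCCCGC, the C/EBP-ATF element TGATGNAA, the cAMP response element TGACGTCA and the TATA box TATAAA, searched on both strands, were not found in these 3 windows. They occur in 6.34%, 2.98%, 1.39%, 3.14%, 1.65% and 10.7% of all windows in that order. A match is a string of letters here and not a measured binding site.

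Among the cyclins, CCND1 (ENSG00000110092, chr11:69641087-69654474 on the plus strand, GRCh38) encodes cyclin D1, the partner of CDK4 and CDK6 that most solid tumours use. Its level was 353, 446 and 390 CPM in the control libraries and 760, 825 and 757 CPM in the Sev libraries. Every Sev library lay above every control library, and the lowest Sev value was well clear of the highest control value. The mean rose from 396 ± 47.2 to 781 ± 38.6 CPM (SD, n = 3 each), which is 0.98 on the log2 scale (SE 0.10, adjusted p = 0.000401 by edgeR's quasi-likelihood test). Leaving out 1 library at a time moved this log2 fold change between 0.89 and 1.06, and it was above 1 without control replicate 2 or without Sev replicate 3. The gene LTO1 on the opposite strand shares exon sequence with CCND1 and held 1.89% as many counts as CCND1, with a log2 fold change of −0.50 (adjusted p = 0.0659 by the same test).

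CCND3 (ENSG00000112576, chr6:41934933-42050357 on the minus strand) encodes cyclin D3, best known from lymphocytes. It was measured at 58.1, 55.4 and 63.6 CPM in control and at 84.0, 88.9 and 76.6 CPM in Sev-treated cells, and the groups did not overlap. The rise from 59.0 ± 4.18 to 83.2 ± 6.18 CPM (SD, n = 3 each) was 0.49 on the log2 scale (SE 0.093, adjusted p = 0.0042 by edgeR's quasi-likelihood test). CCND2 (ENSG00000118971, chr12:4273772-4305350 on the plus strand), which encodes cyclin D2, was close to absent from the counts. It had 3, 0 and 7 counts in the control libraries and 0 in each Sev library, where a count of 0 allows up to 3 counts. A second annotated gene, ENSG00000285901, lies on the same strand and shares exons with CCND2. How reads in shared exons were counted is not stated, so CCND2 RNA may be higher than these counts show. Processed pseudogene copies of the cyclins, CCND2P1 and CCND3P2, were at 0, and CCND3P1 had 5 counts in 1 library.

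**Figure D2:**
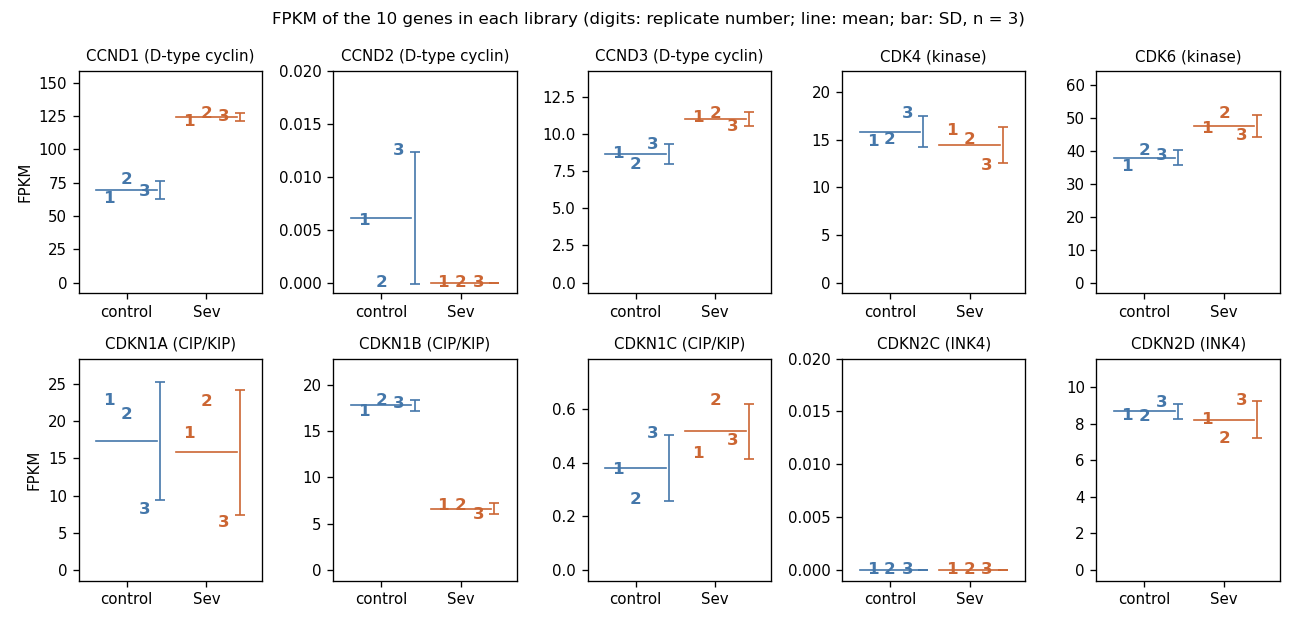
Deposited FPKM of the 10 genes, one panel per gene with its own linear y axis, for control (blue) and Sev-treated (orange) U251 libraries, where digits give the replicate number, lines the mean and bars the SD (n = 3). CCND1 is the highest, from 63.4 to 127 FPKM, the CDKN1B groups are apart, with 17.1 as the lowest control and 7.02 as the highest Sev value, and the library numbered 3 is lowest for CDKN1A in both groups.

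Of the kinases, CDK6 (ENSG00000105810, chr7:92604921-92836594 on the minus strand) was the more abundant. The control libraries held 499, 588 and 559 CPM and the Sev libraries 746, 848 and 690 CPM. The groups did not overlap, although the spread between Sev libraries was wider than that between control libraries. The mean rose from 549 ± 45.4 to 762 ± 80.1 CPM (SD, n = 3 each), or by 0.47 on the log2 scale (SE 0.11, adjusted p = 0.00885 by edgeR's quasi-likelihood test). The antisense gene CDK6-AS1 held 0.186% as many counts as CDK6.

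CDK4 (ENSG00000135446, chr12:57747727-57756013 on the minus strand) had 52.8, 55.5 and 64.8 CPM in control and 64.1, 62.6 and 47.8 CPM in Sev-treated cells, so the groups overlapped and the lowest of the 6 values was a Sev library. The means were 57.7 ± 6.29 and 58.2 ± 9.02 CPM (SD, n = 3 each), with a log2 fold change of 0.011 (SE 0.14, adjusted p = 0.955 by edgeR's quasi-likelihood test). Its sign depended on the scaling and on single libraries, with values between −0.14 and 0.14. Reads from overlapping genes cannot be told apart from CDK4 reads if the counting ignored strand, which is not stated. TSPAN31, which runs into CDK4 from the opposite strand and shares exon sequence, held 30.5% as many counts as CDK4 and rose by 0.56 on the log2 scale (adjusted p = 0.013 by the same test). MARCHF9 overlaps the other end of CDK4 without a shared exon, held 30.1% as many counts and had a log2 fold change of −0.35 (adjusted p = 0.081).

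Of the CIP/KIP genes only CDKN1B passed the test. CDKN1B (ENSG00000111276, chr12:12715058-12722371 on the plus strand) encodes p27, which holds cyclin E and CDK2 inactive in resting cells and also helps D-type cyclins to assemble with their kinases. It was at 50.5, 56.2 and 54.6 CPM in control and at 23.1, 24.2 and 19.3 CPM in Sev-treated cells. The highest Sev library was below the lowest control library by a wide margin. The mean was 53.8 ± 2.96 CPM in control and 22.2 ± 2.58 CPM after Sev (SD, n = 3 each), so the gene fell, with a log2 fold change of −1.27 (SE 0.11, adjusted p = 0.000189 by edgeR's quasi-likelihood test), and stayed between −1.34 and −1.18 when single libraries were left out. An annotated intronic transcript inside the gene, AC008115.3, which shares no exon with CDKN1B, held 6.20% as many counts and fell too, with a log2 fold change of −1.23 (SE 0.29, adjusted p = 0.0111 by the same test). It lies on the same strand, so its reads cannot be told apart from those of unspliced CDKN1B RNA.

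CDKN1A (ENSG00000124762, chr6:36676460-36687339 on the plus strand) encodes p21, a target of p53 that stops cyclin and CDK2 complexes after DNA damage. Its values were 79.9, 76.6 and 29.5 CPM in control and 72.8, 93.3 and 24.8 CPM in Sev-treated cells. The library numbered 3 was by far the lowest in each group, and the groups overlapped over nearly their whole range. The highest value was 2.71 times the lowest in control and 3.76 times in Sev-treated cells, and the spread within groups was at percentile 99.2 among 10855 features with a mean of at least 10 CPM. The means of 62.0 ± 28.2 and 63.6 ± 35.1 CPM (SD, n = 3 each) gave a log2 fold change of 0.038 (SE 0.50, adjusted p = 0.959 by edgeR's quasi-likelihood test). With single libraries left out it ran from −0.34 to 0.42, so these libraries set no direction for CDKN1A.

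CDKN1C (ENSG00000129757, chr11:2883213-2885773 on the minus strand), an imprinted gene that encodes p57, was rare. It had 47, 32 and 75 counts in the control libraries and 55, 82 and 61 in the Sev libraries, and the counts overlapped. Its level was 1.15 ± 0.371 CPM in control and 1.73 ± 0.396 CPM in Sev-treated cells (SD, n = 3 each), a log2 fold change of 0.57 (SE 0.30, adjusted p = 0.154 by edgeR's quasi-likelihood test).

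Of the INK4 genes, CDKN2D (ENSG00000129355, chr19:10566462-10569059 on the minus strand), which encodes p19, was the only one of the family with a measurable level. It had 14.6, 15.2 and 16.3 CPM in control and 16.1, 14.6 and 17.5 CPM in Sev-treated cells, with overlapping groups. The means of 15.4 ± 0.853 and 16.1 ± 1.48 CPM (SD, n = 3 each) differed by a log2 fold change of 0.064 (SE 0.12, adjusted p = 0.684 by edgeR's quasi-likelihood test), and the sign turned under other scalings. CDKN2C (ENSG00000123080, chr1:50960745-50974633 on the plus strand), which encodes p18, had 0 counts in all 6 libraries, which allows at most 3 counts in a library. CDKN2A and CDKN2B, the p16 and p15 genes on chromosome 9, were also at 0 in every library.

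Genes next to CDKN2C were looked at after its values were seen. FAF1 starts just before CDKN2C on chromosome 1, runs in the opposite direction and encodes a ubiquitin-binding factor of protein degradation. FAF1 and the neuronal gene ELAVL4 were at 0 in all 6 libraries. DMRTA2 had 6 counts in 1 library and C1orf185 1 count in 1 library. Farther out, RNF11 had 3635 to 4925 counts, TTC39A 134 to 247, EPS15 4401 to 5337 and BEND5 69 to 165. The run of genes at or near 0 therefore reached from ELAVL4 to C1orf185 in the order of protein-coding genes. Around CDKN2A and CDKN2B, MTAP on one side had 884 to 2423 counts and DMRTA1 on the other side 828 to 1632, while ENSG00000264545, which spans both, was at 0. The genome of the cells was not measured here.

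**Figure D3:**
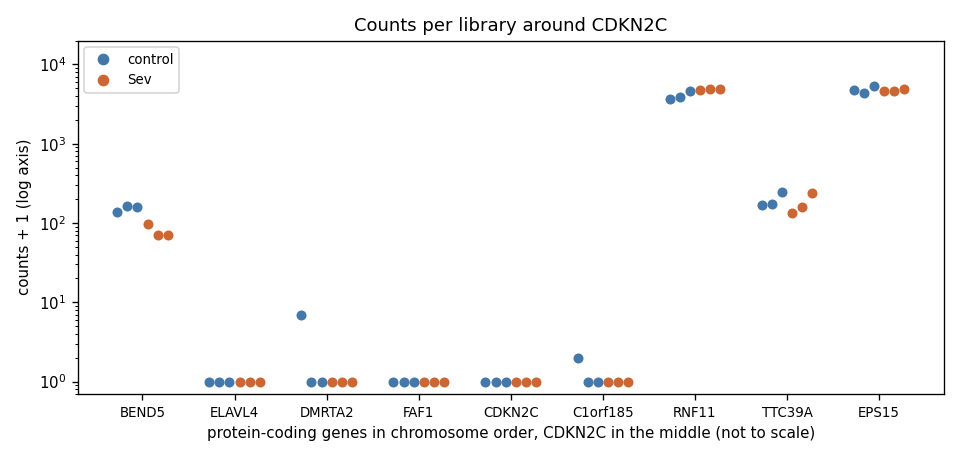
Counts of CDKN2C and of the 4 protein-coding genes on each side, in chromosome order on the x axis, for each control (blue) and Sev-treated (orange) U251 library, drawn as counts + 1 on a log axis so that 0 shows as 1. ELAVL4, FAF1 and CDKN2C are at 0 in all 6 libraries, DMRTA2 and C1orf185 have at most 6 counts, and RNF11 and EPS15 have 3635 or more.

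Levels were compared between genes on the FPKM scale, which divides counts by gene length. The deposited FPKM follows library size and not the trimmed mean (TMM) factors behind the CPM values, so a difference between groups is smaller in FPKM for the genes that rose. In control cells CCND1 was highest with 69.7 ± 6.93 FPKM (SD, n = 3), followed by CDK6 with 38.0 ± 2.39. CDKN1B, CDKN1A and CDK4 followed with means of 17.8, 17.3 and 15.9 FPKM, and neighbours in this order overlapped in range. CDKN2D at 8.67 and CCND3 at 8.64 FPKM overlapped too, and CDKN1C was at 0.383 FPKM. In Sev-treated cells CCND1 stood at 124 ± 2.86 and CDK6 at 47.7 ± 3.39 FPKM (SD, n = 3). CDKN1A at 15.8 and CDK4 at 14.4 FPKM came next and overlapped in range, CCND3 ranged from 10.5 to 11.4, CDKN2D averaged 8.23 and CDKN1C at 0.518 FPKM. CDKN1B moved from place 3 to place 7, at 6.64 ± 0.576 FPKM, and its 3 values were below those of CDKN2D in every Sev library.

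Sums and ratios of these FPKM values described the balance between the groups of genes. An exact two-sided permutation test of 3 libraries against 3 cannot give a p below 0.1, and 6 such measures were tested. CCND1 made up 88.9 ± 1.53% of the summed D-type cyclin FPKM in control and 91.9 ± 0.332% in Sev-treated cells (SD, n = 3 each, exact permutation p = 0.1), and the groups did not overlap. Summed inhibitors divided by summed cyclins gave 0.675, 0.563 and 0.462 in the control libraries and 0.257, 0.271 and 0.164 in the Sev libraries. This ratio was lower in every Sev library than in any control library, with a difference in mean log2 ratio of −1.31 (exact permutation p = 0.1). The cyclin sums take CCND2 as counted, with the limit given above. Because CDKN1A varied most, the ratio was also taken without it, a choice made after its values were seen, and was then 0.344 ± 0.0235 in control and 0.114 ± 0.00574 in Sev-treated cells (SD, n = 3 each), with no overlap. The summed cyclins did not overlap between groups, at 78.3 ± 6.50 and 135 ± 2.98 FPKM. The summed inhibitors did, at 44.2 ± 7.17 and 31.2 ± 8.05 FPKM. CDK4 divided by CDK6 was 0.418 ± 0.0429 in control and 0.303 ± 0.0343 in Sev-treated cells (SD, n = 3 each, exact permutation p = 0.1), again without overlap. RNA ratios are not ratios of protein or of kinase activity, which were not measured here.

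The other genes of the pathway were taken from 6 lists written from general knowledge, with earlier results of these data known. Of 71 such genes 69 were tested, and 22 rose and 7 fell at an adjusted p under 0.05, which is 42.0% called beside the 43.7% of all features. With library size as the only scaling this split became 14 higher and 13 lower, since that scaling moves the median of all features by −0.14 on the log2 scale. Directions of the small differences below therefore rest on the TMM scaling. The median log2 fold change of the 69 genes was 0.16, beside 0.038 over protein-coding genes.

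Among the 13 pocket proteins, E2F factors and their DP partners, 7 rose and 3 fell, which is 76.9% called beside 43.7% of all features and 45.9% of protein-coding genes, with a median log2 fold change of 0.31. The pocket protein genes RB1 and RBL2, whose products hold E2F factors in check, fell by 0.47 (SE 0.11, adjusted p = 0.0127) and 0.92 (SE 0.10, adjusted p = 0.000428) on the log2 scale by edgeR's quasi-likelihood test. RBL2 went from 219 ± 19.3 to 115 ± 10.2 CPM (SD, n = 3 each). The activator genes E2F1, E2F2 and E2F3 had log2 fold changes of 0.60, 1.12 and 0.59, and E2F2 went from 46.2 ± 9.32 to 101 ± 7.48 CPM (SD, n = 3 each). E2F6, a repressor that works without pocket proteins, rose by 1.04 on the log2 scale, and E2F5, a partner of pocket proteins, fell from 30.6 ± 8.81 to 15.1 ± 4.01 CPM. With library size only, 5 genes of this list were higher and 4 lower.

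**Figure D4:**
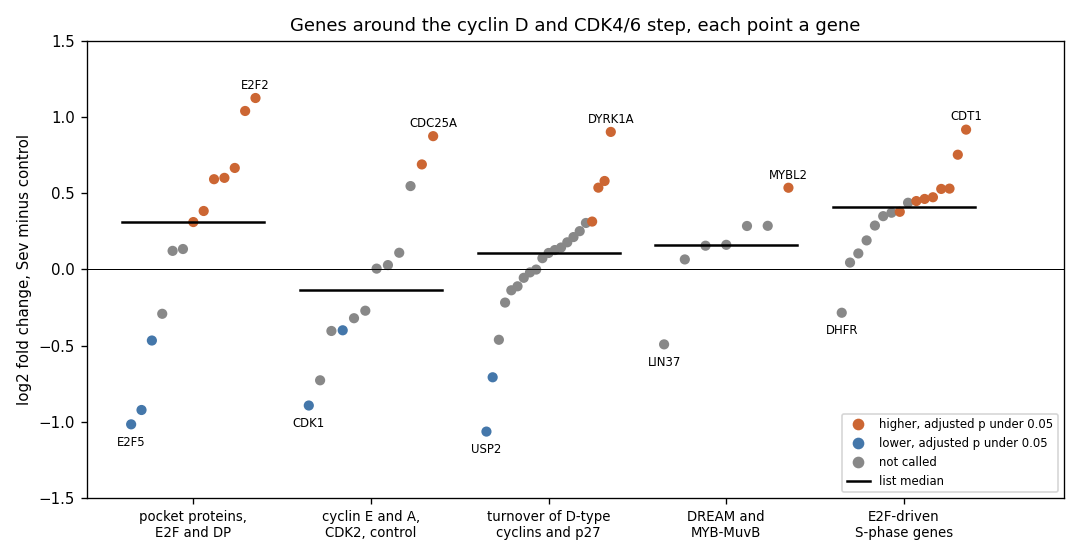
Log2 fold change in Sev-treated against control U251 cells on the y axis for the 69 tested genes of 5 lists around the D-type cyclins, one point per gene, coloured where the adjusted p is under 0.05, with a black line at each list's median. The medians run from −0.13 for cyclin E and A with CDK2 to 0.41 for the S-phase genes, where the 8 called genes lie above 0, and E2F2 is the highest point at 1.12.

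Of the 12 genes for the next step in the cycle, cyclin E and A with CDK2, 2 rose and 2 fell, which is 33.3% called beside 43.7% of all features, with a median log2 fold change of −0.13. WEE1, whose kinase restrains CDK1 and CDK2, rose by 0.69 on the log2 scale, and so did CDC25A, the phosphatase that opposes it, by 0.87. CDK1 fell by 0.89 and CCNH, a subunit of the kinase that activates CDKs, fell by 0.40. CCNE1, CCNE2, CCNA2 and CDK2 did not pass the test, with log2 fold changes of −0.40, 0.028, −0.27 and 0.11.

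Of 21 genes for the turnover of D-type cyclins and p27, 4 rose and 2 fell, which is 28.6% called beside 43.7% of all features. With library size only, and with limma on either filtered FPKM scale, the split turned to 2 higher and 4 lower. DYRK1A, a kinase that marks cyclin D1 for degradation, rose from 74.8 ± 2.83 to 140 ± 8.82 CPM (SD, n = 3 each), and its relative DYRK1B fell from 13.4 ± 1.27 to 8.23 ± 1.35 CPM. SKP1, a core subunit of SCF ubiquitin ligases, rose by 0.58 on the log2 scale. USP2, a deubiquitinase that protects cyclin D1, fell by 1.06 on the log2 scale at the low level of 4.81 CPM in control cells. CRYAB and CUL1 rose by 0.54 and 0.31, and each of these calls was kept in only 2 of 6 fits made without a library. Both calls were also lost with library size only, without the expression filter and by limma on FPKM, and that of CUL1 with the replicate number as a block. SKP2, which recruits p27 to its ligase, and AMBRA1, which recruits D-type cyclins, did not pass the test, with log2 fold changes of −0.22 and 0.14. Without control replicate 1 only 2 genes of this list were higher.

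Genes that E2F drives at the start of S phase made up a list of 16, of which 8 rose and 0 fell by edgeR's quasi-likelihood test, with a median log2 fold change of 0.41. A count of 8 in 16 is near the 43.7% called over all features. None was lower at an unadjusted p under 0.05 or by DESeq2 either. With library size only, and with limma on either filtered FPKM scale, 4 were higher and 1 lower, and without control replicate 1 there was also 1 lower. Without a filter 4 were higher by edgeR and 3 by limma on log2(FPKM + 1). The number of higher genes rested on single libraries, with 4 when control replicate 1 or Sev replicate 1 was left out, 5 without control replicate 3 or Sev replicate 3, and 11 without control replicate 2. The replication licensing gene CDT1 rose from 42.5 ± 5.69 to 80.2 ± 6.62 CPM (SD, n = 3 each), and PCNA, the sliding clamp of DNA polymerases, from 89.9 ± 15.3 to 151 ± 21.6 CPM. MCM3 and MCM7, subunits of the replicative helicase, rose by 0.47 and 0.46 on the log2 scale, although MCM3 was not called by limma on log2(FPKM + 1) without a filter (0.33, adjusted p = 0.0561). RRM2, TK1 and MKI67 did not pass the test, with log2 fold changes of 0.44, 0.37 and 0.10. In the list of 7 genes of the DREAM and MYB-MuvB complexes, MYBL2 rose by 0.54 on the log2 scale (SE 0.12, adjusted p = 0.00882 by edgeR's quasi-likelihood test) and no other gene was called. MYBL2 was not called by limma on log2(FPKM + 1) without a filter (0.40, adjusted p = 0.0528), and 1 gene of the list was lower with library size only and without control replicate 3.

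The features whose log2 CPM followed that of CCND1 most closely over the 6 libraries were LUC7L2, BTN2A1 and KHSRP, each with a Pearson r of 0.999, and those closest to CDKN1B were HMMR, HSDL2 and BORCS6, with r of 0.999, 0.999 and 0.998. These values describe 6 libraries in 2 groups, and of 13614 features compared 1539 reached an r over 0.95 with CCND1 and 1026 with CDKN1B. Pearson r ignores the size of a change. LUC7L2, BTN2A1 and KHSRP had log2 fold changes of 0.54, 0.15 and 0.87, and BTN2A1 was not called (adjusted p = 0.129 by edgeR's quasi-likelihood test). HMMR, HSDL2 and BORCS6 had −1.66, −0.62 and −0.82.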

How the data were processed

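RNA of 3 control and 3 Sev-treated U251 libraries was depleted of ribosomal RNA and sequenced in pairs after ligation of strand-specific adapters, as the study's methods state. The authors deposited raw counts per feature and FPKM values, which are counts divided by gene length and library size. The submitters' processing notes name bcl2fastq 2.19, featureCounts and hg18, although many identifiers are from later annotations. The aligner, annotation and strand setting are not given in the sources used here. Over 8626 features, 99.99% of the ratios of count to FPKM, scaled by library size, were within 1% of a constant per gene times a factor per library. These library factors were 0.996 to 1.005, whereas the TMM factors ran from 0.918 to 1.075, so the deposited FPKM carries no TMM factor.

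Symbols were matched for 60295 features, and positions come from GENCODE 29 on GRCh38 by identifier. Promoter windows are from RefSeq. Counts were filtered with filterByExpr, given TMM factors and fitted with glmQLFit, then glmQLFTest, in edgeR 4.0.16 (R 4.3.3), on group alone. Standard errors are the log2 fold change over the root of F. CPM values carry no prior count. Ratios of FPKM were compared by exact permutation with scipy 1.17.1. The biological coefficient of variation was 0.204. The edgeR steps were tested on data simulated with a common dispersion for all genes. There 70% of log2 fold changes of 1 in size and 100% of those of 2 were recovered, so smaller changes can be missed. Limits drawn from a count of 0 cover counting error only.

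The members and lists were chosen with earlier results of these data known. Named were all 10 members, at most 4 called genes with the smallest p in each direction of each list, both other INK4 genes, overlapping genes and copies, and the 3 features nearest in pattern to the top riser and faller. Uncalled list genes and the neighbours of CDKN2C, CDKN2A and CDKN2B were added after their values were seen. Alternatives were RLE size factors, library size only, DESeq2 1.42.0, a floor of 10 counts per library, no filter, limma 3.58.1 on log2(FPKM + 1), filtered at 0.5 FPKM in 3 libraries or not, limma on log2(FPKM + 0.1) with that filter, the replicate number as a block, and each library left out.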

Additional observations from a re-analysis of the deposited data

How the results depend on the processing

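The calls of CCND1, CCND3, CDK6 and CDKN1B kept their direction and their side of the threshold under all 15 alternatives. The sign of CDKN1A, CDKN2D and CDK4, which were not called, turned under some of them. CDKN1A gave −0.12 with library size only, −0.18 with log2(FPKM + 0.1), −0.16 with log2(FPKM + 1) with and without the filter, and −0.34 to 0.42 with single libraries left out. CDKN2D gave −0.074, −0.081, −0.073 and −0.073 in those settings and −0.0017 to 0.13 with single libraries left out. CDK4 gave −0.13, −0.14, −0.13 and −0.13, −0.0021 without the expression filter and −0.065 to 0.14 with single libraries left out. The count of genes past the study's threshold in the higher direction was 0 to 1 with single libraries left out, and the 1 was CCND1 without control replicate 2 or Sev replicate 3. Of the other pathway genes, 14 were higher with library size only, with log2(FPKM + 1) and with log2(FPKM + 0.1), and 12 with log2(FPKM + 1) without the filter. Lower were 13 with library size only, 12 with either filtered FPKM scale and 9 with log2(FPKM + 1) without the filter. Without single libraries the higher genes numbered 15 to 24. The CCND2 share differed by −0.0163 percentage points on CPM. Numbers shared by control and Sev libraries did not pair them, since the deviations of same-numbered libraries correlated at −0.035, 0.0048 and 0.059 over 19446 features. With the replicate block 10249 of 27514 features were called, the same 4 members among them, and CDKN1A was at −0.032. CDKN1C was below the FPKM filter, and CCND2 could be tested only without the expression filter (adjusted p = 0.157 by edgeR). CCND2 and CDKN1C had at most 7 and 82 counts in a library, which limits their precision. For CDKN2C, 0 counts allow at most 3 in a library.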

Other observations

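The low CDKN1A value in the library numbered 3 of each group was followed up after it was seen. Of 10855 features with a mean of at least 10 CPM, 5 were more than 2-fold below both other libraries of their group in the number 3 libraries of both groups, namely CDKN1A, FAM53C, FOXM1, PXDC1 and MSTRG.13336, and 0 were more than 2-fold above. The same count was 2 low and 3 high for number 1 and 6 low and 4 high for number 2. FOXM1, a transcription factor of the G2 and M phases, had 88.9, 111 and 43.7 CPM in the control libraries and 122, 122 and 53.1 CPM in the Sev libraries. Library numbers carry no stated meaning, and the origin of this spread was not tested.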
